A study of Mus musculus with 9 samples.

Results

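Olfactory receptor probes that gave a signal above background in mouse brainstem were examined over 3 of its regions. The probes were chosen by their detection scores, values measured on these same arrays. A probe was included when its array name started with OLFR and its detection score was above 0.95 on at least 3 of the 9 arrays. Of 1302 olfactory receptor probes on the array, 105 met this rule (8.06%), and they carried 102 of 1095 receptor names. The detection score compares a probe with the negative control beads of the same array. On a single array, a limit of 0.95 thus lets through 5.0% of those controls by construction. The rule asks for at least 3 of 9 arrays, so 5.0% is not its rate for controls. Among the 43979 other probes, 20356 met the same rule (46.29%).

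The mice were males of the strain Chat-Cre:Ai9, aged 8 weeks, and total RNA was taken from brainstem tissue called dorsal, ventral or target by the labels. There were 3 arrays per region. Every group shared this strain, in which Cre recombinase is expressed from the choline acetyltransferase gene Chat of cholinergic cells and switches on the red Ai9 reporter tdTomato. The labels do not say what the target region was or how tissue was dissected, and they describe no sorting of cells. Arrays with the same number in different regions came from the same mouse, per the file headers. The tissue carried markers of neurons and brainstem on all 9 arrays, among them Snap25, Slc17a6, Slc6a5 and Hoxb3, while Tph2 was above background on 4 arrays and Hoxb2 on 5. In bulk tissue, fewer cells of a type and less RNA per cell cannot be told apart.

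Olfactory receptors are G protein-coupled receptors of the odour-sensing neurons in the nose. Each such neuron uses a single receptor gene out of a very large family, and the genes lie in tandem clusters on most chromosomes. A bound odorant acts through the G protein subunit Gnal, the adenylyl cyclase Adcy3 and a cyclic nucleotide-gated channel built on Cnga2. Transcripts of some receptor genes are also known from tissues outside the nose, and the odorants of most receptors are unknown.

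Detection was patchy for most of the receptor probes. Of the 1302 receptor probes, 987 (75.81%) were above background on 0 arrays, against 40.02% of the other probes. Another 145 were above background on 1 array and 65 on 2. Of the 105 included, 29 were above background on 3 arrays, the lowest number the rule takes, 38 on at least 6 and 3 on all 9. The last were the probes of Olfr1380, Olfr1443 and the array's OLFR257, for which no current symbol was matched. By contrast, 27.72% of the other probes were above background on all 9.

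The included probes were dim. Levels are given as log2 intensity after background correction and quantile normalization, a scale on which probes that were above background nowhere had a median of 4.93. The lowest level of any probe above background was 5.55 to 5.9, depending on the array. The median receptor probe had a mean level of 5.69 over the 9 arrays, with a range from 5.23 to 7.41, while the median of all 20461 probes that met the rule was 7.12. A single receptor probe, that of Olfr711, exceeded this median, and 55.3% of the tested probes were dimmer than it. The typical spread within a region was an SD of 0.4 for the receptor probes and 0.35 for all tested probes. Each intensity rested on 22 to 79 beads, and the standard error over beads was 4.7% of the intensity in the median.

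At the edge of the rule, the third highest score was 0.95192 for Olfr1261 and 0.95406 for Olfr525, both just inside it. Olfr730 and Olfr1497 lay just outside, each at 0.94872. Region means ran from 5.17 to 5.83 for Olfr1261 and from 5.06 to 5.64 for Olfr730. These probes were picked as the nearest to the limit, so close values follow from that choice.

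The share of receptor probes above background differed between arrays. Over all 1302 receptor probes it was 6.76%, 8.91% and 10.75% on the dorsal arrays of mice 1 to 3, a mean of 8.81% ± 2.0 (SD, n = 3). On the ventral arrays it was 3.38%, 3.3% and 6.07%, a mean of 4.25% ± 1.57 (SD, n = 3). The target arrays gave 7.68%, 7.83% and 6.07%, a mean of 7.19% ± 0.98 (SD, n = 3). Dorsal and ventral arrays did not overlap, and ventral arrays 1 and 2 were below the 5.0% of negative controls that the limit lets through. An exact two-sided permutation test gave p = 0.1 for dorsal against ventral, the smallest p that 3 against 3 arrays allow, so it could not pass 0.05. It used all 1302 receptor probes, not the 105, and did not take account of the shared mice. The same exact permutation test gave p = 0.2 for target against ventral and p = 0.3 for target against dorsal.

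Other probes followed the same order of region means with a smaller relative spread. Their share above background averaged 43.0% in dorsal, 41.23% in target and 39.7% in ventral tissue, and the exact permutation p was 0.2 for dorsal against ventral. Raw brightness moved with these shares. The median intensity of all probes was 221.0 and 230.9 on ventral arrays 1 and 2 and 219.3 on target array 3, which were the 3 brightest arrays and 3 of the 4 with the lowest receptor shares. The other 6 arrays had medians from 146.1 to 181.9. Dorsal array 1 and ventral array 3 had close medians, 167.8 and 165.8, with receptor shares of 6.76% and 6.07%. The part of array brightness in the regional order was not tested.

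Within the 105 probes, 38 were above background on all 3 dorsal arrays, 27 on all 3 target arrays and 8 on all 3 ventral arrays. A set of 8 probes was above background on all 6 dorsal and target arrays and on 0 ventral arrays. Another 4 were above background on the 3 dorsal arrays alone. The ventral arrays alone accounted for 1 probe, that of Olfr243, and the target arrays alone for 0. These patterns use the scores that chose the probes and are given as a description. The same patterns are not given for other probes, whose share above background also averaged 43.0% in dorsal and 39.7% in ventral tissue. Whether the patterns are particular to receptor probes was not tested.

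Differences in level between regions were tested with limma over all 20461 probes that passed the same filter, with Benjamini-Hochberg adjustment. Between dorsal and ventral tissue, 12 of the 105 receptor probes changed (11.43%), beside 7.98% of all tested probes. Of these, 11 were higher in dorsal tissue, where 4.06% of all tested probes were higher, and 1 was lower, where 3.92% of all tested probes were lower. Among the 12, Olfr1412 and Olfr243 met the detection rule only through the region in which they were high. The called probes of Olfr711, Olfr10, Olfr64, Olfr214, Olfr1441, Olfr55, Olfr1153 and Olfr934 met it through dorsal and target arrays alone, with 0 ventral arrays above background. For all of these the filter and the tests against ventral tissue were not independent. With no filter on dim probes, 13 of the 1302 receptor probes changed between dorsal and ventral tissue (0.998%), beside 3.29% of all 45281 probes, so the share of receptor probes was then below that of all probes. For target against ventral it was 6 of 1302 (0.461%) beside 0.716%. Between target and ventral tissue, 7 receptor probes were higher in target tissue and 0 lower, and 1.78% of all tested probes changed, 1.17% upward and 0.616% downward. All 7 were among the 12 of the other comparison, and both comparisons share the ventral arrays. Between target and dorsal tissue, 0 receptor probes changed by limma, where 0.0586% of all tested probes did. An unadjusted p below 0.05 was found for 11 of the 105 receptor probes and for 1965 of the 20461 tested probes.

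With the mouse as a block in the limma fit, 4 receptor probes passed for target against ventral (background 0.753%), and 3 of them, Olfr711, Olfr64 and Olfr1153, were also among the 7. The fourth was Olfr553, named after its values were seen, with an adjusted p of 0.0206. For dorsal against ventral the blocked fit called 14 (background 6.58%), which included all 12, Olfr553 and a second Olfr10 probe, and for target against dorsal it called 0 (background 0.0147%). Leaving out a single array gave 9 to 13 calls for dorsal against ventral (background 4.57% to 7.09%). The 7 calls for target against ventral (background 1.78%) became 2, 3 and 1 without target arrays 1, 2 and 3 (0.567%, 0.45% and 0.318%). They became 3 without ventral array 1 (0.63%) and 4 without ventral array 3 (0.929%). Without any other single array there were 5 to 7 (0.816% to 1.36%). Most receptor probes did not pass in any comparison. Over the 105 probes the median difference was 0.315 for dorsal minus ventral, 0.242 for target minus ventral and -0.073 for target minus dorsal on the log2 scale, beside 0.039, 0.019 and -0.015 over all tested probes. Since the rule used levels on these arrays, the same medians were taken over all 1302 receptor probes with no filter. They were 0.002, 0.024 and 0.013 in the same order.

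The probe of Olfr711 (probe 1340072, gene on chromosome 7) had the highest level and the widest regional difference of the receptor probes. Its levels were 9.6, 9.08 and 8.15 in dorsal tissue of mice 1 to 3 and 8.65, 8.55 and 8.57 in target tissue. In ventral tissue they were 4.56, 4.66 and 4.87, under the median of probes above background nowhere. On the linear scale before normalization, its intensities were 959.2, 671.9 and 483.4 in dorsal, 471.9, 505.9 and 503.0 in target and 142.2, 160.9 and 140.3 in ventral tissue. No dorsal or target array overlapped a ventral one on either scale. The fitted difference was 4.25 (SE 0.32) for dorsal minus ventral, with a limma adjusted p of 0.00028, and 3.9 for target minus ventral, with an adjusted p of 0.000926.

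Where a region had no array above background, only a bound on the fold can be given. For this the dim region's value on each array was raised to the lowest level that any probe above background reached there, unless the probe already exceeded it, and the bright region's mean was set against the result. The Olfr711 signal was at least 8.82-fold higher in dorsal and at least 6.91-fold higher in target than in ventral tissue. Dorsal and target tissue differed by -0.35 (SE 0.32) for target minus dorsal, with a limma adjusted p of 0.767. These bounds hold on the background-corrected scale only. In the authors' quantile-normalized intensities, which keep the background, the folds were 4.84 and 3.97. The fitted differences of the other 11 called probes were smaller in size in those values too.

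Promoter windows of 4 of the called receptor genes are shown, from 250 bases before to 50 bases after the annotated start, since their probes were brightest or gave the lowest adjusted p. They come from RefSeq on build GRCm38.p6 and are written 5′ to 3′ on the gene's strand. They lie at chr7:106975402-106975701 (minus strand, Olfr711), chr11:49317298-49317597 (plus strand, Olfr10), chr7:103894422-103894721 (minus strand, Olfr64) and chr2:87895927-87896226 (plus strand, Olfr1153). Capitals mark the letters TAATTA, a core bound by homeodomain factors, and an ATG that stands exactly at the annotated start.
Olfr711: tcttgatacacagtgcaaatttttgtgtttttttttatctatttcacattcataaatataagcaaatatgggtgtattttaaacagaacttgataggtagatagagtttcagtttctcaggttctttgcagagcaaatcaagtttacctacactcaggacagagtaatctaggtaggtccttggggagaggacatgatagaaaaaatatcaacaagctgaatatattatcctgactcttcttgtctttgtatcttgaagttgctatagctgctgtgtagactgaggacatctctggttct
Olfr10: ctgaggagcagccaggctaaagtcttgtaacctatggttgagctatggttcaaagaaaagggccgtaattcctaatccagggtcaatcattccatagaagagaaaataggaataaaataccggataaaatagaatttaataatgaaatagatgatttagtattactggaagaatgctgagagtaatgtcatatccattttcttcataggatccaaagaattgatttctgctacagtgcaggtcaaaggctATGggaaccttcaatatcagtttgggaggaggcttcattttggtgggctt
Olfr64: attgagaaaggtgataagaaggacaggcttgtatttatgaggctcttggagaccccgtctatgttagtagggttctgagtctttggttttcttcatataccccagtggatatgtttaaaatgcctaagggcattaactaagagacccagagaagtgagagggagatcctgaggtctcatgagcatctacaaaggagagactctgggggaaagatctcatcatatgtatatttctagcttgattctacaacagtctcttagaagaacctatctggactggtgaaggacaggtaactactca
Olfr1153: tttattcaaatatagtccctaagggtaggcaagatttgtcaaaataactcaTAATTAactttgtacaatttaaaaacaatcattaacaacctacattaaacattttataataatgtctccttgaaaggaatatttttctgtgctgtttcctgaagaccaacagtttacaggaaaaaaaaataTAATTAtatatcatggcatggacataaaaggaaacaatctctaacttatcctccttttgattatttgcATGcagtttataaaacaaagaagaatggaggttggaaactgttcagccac

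An ATG at the annotated start means that the window precedes the coding start and not a mapped upstream exon. This held for 59 of the 79 included genes that had a window, Olfr10 and Olfr1153 among them, while the windows of Olfr711 and Olfr64 had none there. TAATTA was present in 13 of the 79 windows (16.46%), in 18.49% of 914 windows of receptor genes on the array and in 5.29% of 32851 windows of all genes. An ATG stood at the annotated start in 667 of the 914 windows but in 1915 of the 32851. The last share thus comes from an unlike kind of sequence. The motif reads the same on either strand, so 1 search covers both.

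Olfr10 (probe 4760142, chromosome 11) followed in size of level. It stood at 8.44, 7.68 and 8.58 in dorsal, 7.33, 7.91 and 7.13 in target and 5.46, 5.84 and 5.18 in ventral tissue. All 6 dorsal and target values exceeded the ventral ones. Dorsal exceeded ventral by 2.74 (SE 0.31, limma adjusted p 0.00142), at least 5.4-fold, and target exceeded ventral by 1.96 (adjusted p 0.0192, or 0.0598 with the mouse as a block), at least 3.15-fold. Without any 1 target array, ventral array 1 or ventral array 3, the limma adjusted p for target minus ventral was 0.055 to 0.0676. In the authors' values, with the background kept, the folds for Olfr10 were 2.42 and 1.74.

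Olfr64 (probe 380189, chromosome 7) showed the same order. Its levels were 7.54, 7.69 and 7.94 in dorsal, 7.93, 6.68 and 7.36 in target and 5.27, 5.31 and 4.65 in ventral tissue, so that ventral arrays stood apart again. The difference was 2.64 (SE 0.32) for dorsal minus ventral, with a limma adjusted p of 0.00183, and 2.24 for target minus ventral, with an adjusted p of 0.0139. The corresponding folds were at least 3.79 and at least 2.87. In the authors' values they were 2.23 and 1.94. Without target array 3 the second adjusted p was 0.0645. Olfr214 (probe 3290017, chromosome 6) was at 6.99, 8.88 and 7.71 in dorsal, 7.08, 7.05 and 7.54 in target and 4.84, 4.68 and 5.11 in ventral tissue. Its dorsal arrays were the more scattered, with an SD of 0.95 against 0.22 in ventral tissue. Dorsal exceeded ventral by 2.98 (SE 0.41, limma adjusted p 0.00316), at least 4.16-fold, and target exceeded ventral by 2.35 (adjusted p 0.0304, or 0.0598 with the block). In the authors' values the folds were 2.61 and 1.98. The latter limma adjusted p was 0.0546 to 0.12 without dorsal array 3 or any 1 target or ventral array.

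Olfr1153 (probe 5290348, chromosome 2) was dimmer but tight. Levels were 6.74, 6.28 and 6.48 in dorsal, 6.36, 5.96 and 6.44 in target and 4.62, 4.79 and 4.92 in ventral tissue. The limma adjusted p was 0.00168 for dorsal minus ventral (1.72, SE 0.2) and 0.012 for target minus ventral (1.48), although the bounds on the folds were only 1.62 and 1.37. For target minus ventral it was 0.0518 without target array 1 and 0.0601 without target array 3. Olfr1441 (probe 3370523, chromosome 19) ran from 6.99 to 7.32 in dorsal, from 6.29 to 7.27 in target and from 5.12 to 5.53 in ventral tissue. It was at least 2.51-fold higher in dorsal than in ventral tissue (difference 1.77, SE 0.26, limma adjusted p 0.00443), a fold of 1.59 in the authors' values. Its target minus ventral difference of 1.35 had a limma adjusted p of 0.0405, or 0.0562 with the block. This adjusted p was 0.0561 with no filter on dim probes, and 0.0566 to 0.0983 in limma fits without any 1 of the 9 arrays.

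Olfr934 (probe 1770142, chromosome 9) was the dimmest of the 7 that were higher in both dorsal and target tissue. It ran from 5.95 to 6.23 in dorsal, from 6.0 to 6.37 in target and from 4.98 to 5.24 in ventral tissue. Its raw intensities of 188.0 to 196.4 in dorsal tissue overlapped the ventral ones of 147.3 to 223.6. The limma adjusted p was 0.0113 for dorsal minus ventral (0.97, SE 0.18) and 0.0218 for target minus ventral (1.1), with folds of at least 1.2 and at least 1.31, or 0.0506 for the latter with the block. The former was 0.0501 without dorsal array 2, and the latter 0.0578 to 0.0859 without any 1 target array, ventral array 1 or ventral array 3.

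The other 5 probes changed between dorsal and ventral tissue without passing for target against ventral in the main limma fit. Olfr55 (probe 3890709, chromosome 17) was at 7.22, 7.6 and 6.42 in dorsal, 5.8, 6.11 and 6.26 in target and 5.28, 5.75 and 5.26 in ventral tissue. Its target values lay between those of the outer regions, and dorsal was at least 2.43-fold above ventral (difference 1.65, SE 0.3, limma adjusted p 0.0113), a fold of 1.56 in the authors' values. Its raw intensities overlapped, at 219.3 to 312.7 in dorsal and 161.3 to 248.7 in ventral tissue. Olfr1412 (probe 1430037, chromosome 1) was above background on the 3 dorsal arrays alone, at 6.37, 6.76 and 6.22, and met the detection rule through them. Target arrays were at 4.91, 4.66 and 5.27 and ventral arrays at 4.95, 5.47 and 5.05, with no overlap with dorsal on this scale. Raw intensities did overlap, at 203.0 to 223.6 in dorsal, 151.1 to 236.4 in ventral and 137.2 to 214.6 in target tissue. Dorsal exceeded ventral by 1.29 (SE 0.24, limma adjusted p 0.0118, or 0.0162 in a fit of all 45281 probes with no filter), at least 1.57-fold. In the authors' values, with the background kept, this fold was 1.39. Target minus dorsal was -1.5 with an adjusted p of 0.0685, which passed (adjusted p 0.0472) when arrays were scaled by their medians instead of by quantiles.

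Olfr13 (probe 3290646, chromosome 6) was at 6.07, 7.51 and 7.56 in dorsal, 7.03, 7.15 and 7.12 in target and 4.57, 4.79 and 5.8 in ventral tissue, where 1 of 3 arrays was above background. Dorsal exceeded ventral by 2.0 (SE 0.43, limma adjusted p 0.0233), or by 0.91 in the authors' values, and target minus ventral was 2.05 with an adjusted p of 0.0519. The former adjusted p was 0.0723 to 0.0838 without dorsal array 2 or 3 or without ventral array 1 or 2. The latter difference passed in 5 of 16 alternatives, the authors' values among them, with a lowest limma adjusted p of 0.0245. Olfr1389 (probe 4560576, chromosome 11) was at 7.14, 7.92 and 7.13 in dorsal, 7.08, 7.37 and 6.06 in target and 5.72, 6.37 and 5.64 in ventral tissue. Its dorsal minus ventral difference was 1.49 (SE 0.38, limma adjusted p 0.0438), or 0.62 in the authors' values, and 1 ventral array was above background. Without any 1 dorsal array, target array 1, ventral array 1 or ventral array 3 its adjusted p was 0.0659 to 0.141. With no filter on dim probes the limma adjusted p of Olfr1389 was 0.0786, so this call was lost.

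Olfr243 (probe 6900014, chromosome 7, named OLFR627 on the array) was the receptor probe that was lower in dorsal than in ventral tissue. It was at 6.44, 5.96 and 5.93 in ventral, 5.19, 4.95 and 5.06 in dorsal and 4.95, 5.3 and 5.42 in target tissue. Ventral arrays lay above the other 6, and the probe met the detection rule through them alone. Dorsal minus ventral was -1.04 (SE 0.21, limma adjusted p 0.0165, or 0.019 with no filter on dim probes), at least 1.39-fold lower, and target minus ventral was -0.88 with an adjusted p of 0.0729. In the authors' values, with the background kept, dorsal was 1.31-fold lower than ventral. The raw intensities of 188.5 to 275.2 in ventral tissue overlapped those of 140.3 to 222.1 in target tissue. Without dorsal array 2, dorsal array 3 or ventral array 1 the limma adjusted p for dorsal minus ventral was 0.0502 to 0.0663.

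The probes above background on all 9 arrays did not differ detectably between regions. Olfr1443 (probe 3120368, chromosome 19) averaged 6.71 ± 0.43 in dorsal, 6.48 ± 0.24 in ventral and 6.77 ± 0.37 in target tissue (SD, n = 3 each). Olfr1380 (probe 940468, chromosome 11) averaged 6.39 ± 0.54, 6.52 ± 0.14 and 7.0 ± 0.36 in the same order. OLFR257 (probe 4880349) averaged 6.59 ± 0.23, 6.25 ± 0.24 and 6.45 ± 0.39. The smallest limma adjusted p among these 3 probes was 0.471. Of the 10 brightest receptor probes, Olfr262 (probe 5220026, chromosome 19) averaged 7.04 ± 0.11 in dorsal, 7.12 ± 0.25 in ventral and 6.25 ± 0.69 in target tissue, and Olfr1371 (probe 3140463, chromosome 11) averaged 6.47 ± 0.3, 6.1 ± 0.1 and 6.71 ± 0.97. Neither passed in any comparison, and target tissue was the most scattered region for both.

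Most included receptors with several probes on the array had only 1 of them among the 105. Of the 102 names, 74 had exactly 1 probe on the array. Of the other 28 names, 3 had more than 1 included probe. These 28 names had 35 further probes outside the 105, which by the rule could be above background on at most 2 arrays. Of the 35, 31 were above background on 0 arrays, 3 on 1 and 1 on 2. Over all 1302 receptor probes, 75.81% were above background on 0 arrays. The second probe of Olfr711 (probe 5910520) was at background on all 9 arrays, with region means of 4.73 in dorsal, 4.87 in ventral and 4.73 in target tissue, where the first averaged 8.94, 4.69 and 8.59. Both other probes of Olfr64 averaged from 4.78 to 5.52 over the regions, and 1 of them (probe 3830086) was above background on 2 arrays. The other probe of Olfr243 (probe 2320719) was above background on 0 arrays.

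Only Olfr10, Olfr1380 and Olfr262 had a pair of included probes. The second Olfr10 probe (6650452) averaged 6.85 ± 0.51 in dorsal, 5.48 ± 0.71 in ventral and 6.59 ± 0.79 in target tissue (SD, n = 3 each), in the order of the first. Its dorsal minus ventral difference of 1.37 had a limma adjusted p of 0.121, or 0.0451 with the mouse as a block. The third Olfr10 probe (3450403) was at background on all 9 arrays. The second Olfr1380 probe (2340187) averaged 5.61 in dorsal, 6.06 in ventral and 5.96 in target tissue, and the second Olfr262 probe (6660681) averaged 5.7, 5.17 and 5.42. Probe sequences were not used here, so which exon or transcript a probe reads, and whether it binds another transcript, was not tested.

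The included receptors were spread over the genome. Chromosome 7 held 21 of them (of 284 receptor probes), chromosome 2 held 20 (of 320), chromosome 11 held 12 (of 97) and chromosome 6 held 8 (of 32). They fell into 49 runs of receptor genes uninterrupted by other coding genes in the RefSeq order. A run on chromosome 11 between Mgat1 and 1700024J04Rik held 5 included genes of 13 on the array, namely Olfr10, Olfr1389, Olfr1384, Olfr1382 and Olfr1380. Within it the regional differences diverged: dorsal minus ventral was 2.74 for Olfr10 and 1.49 for Olfr1389, which passed, but 0.51 for Olfr1382, -0.31 for Olfr1384 and -0.14 for the brighter Olfr1380 probe, which did not.

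A run on chromosome 6 held 3 included genes of 5, Olfr211, Olfr213 and Olfr214. There Olfr214 changed, while the dorsal minus ventral values of Olfr213 and Olfr211 were 0.31 and 0.48 with limma adjusted p of 0.521 and 0.626. Coding genes flanking the runs of called receptors were tested where their probes passed the filter. Osbp, an oxysterol-binding protein beside the run of Olfr1441, was lower in dorsal than in ventral tissue (-1.12, limma adjusted p 0.0332), opposite to the receptor. The embryonic globin Hbb-y, beside the run of Olfr64, had a difference of 0.46 (limma adjusted p 0.25). None of the other flanking genes tested passed, with Mgat1 at 0.98 (adjusted p 0.285) for Olfr10 and Nlrp14 at -0.33 (adjusted p 0.509) for Olfr711.

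Several markers of olfactory sensory neurons were at background, while other genes of odour sensing were above it on all 9 arrays. Of 9 markers of olfactory sensory neurons, Cnga2, Stoml3 and the receptor chaperone Rtp1 were above background on 0 arrays, Cnga4 and Rtp2 on 1, Omp, the marker protein of mature sensory neurons, on 2 and Adcy3 on 5. Gnal and the G protein subunit Gng13, both also expressed in brain, were above background on all 9 arrays at mean levels of 10.03 and 10.3. The summed linear level of the 7 markers without Gnal and Gng13 ran from 231.5 to 300.8 over dorsal, from 258.2 to 341.5 over ventral and from 260.7 to 309.5 over target arrays. Most of these 7 were at or near background, and their part in the receptor signal was not tested. Over all 9 markers the sums ran from 2382.9 to 2941.1, from 2595.6 to 2851.1 and from 2449.9 to 2545.3. Of 4 markers of the olfactory bulb, Eomes and Tbr1 were above background on 0 arrays, Cdhr1 on 4 and Doc2g on 6, and their summed level ran from 158.4 to 214.7 over all regions.

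In the list of 17 olfactory signalling genes, 8 were tested and 0 passed in any comparison by limma. Of all tested probes, 0.0586% passed for target against dorsal, 1.78% for target against ventral and 7.98% for dorsal against ventral. Gnb1, Ric8b and Pde1c, besides Gnal and Gng13, had a probe above background on all 9 arrays. Gnal differed by 0.04 between dorsal and ventral tissue (adjusted p 0.938) and Gng13 by -0.13 (adjusted p 0.796). Of 10 genes of olfactory bulb neurons, 4 were tested and 0 passed. Of 19 genes of receptor trafficking and receptor choice, 12 were tested. Among the trafficking genes, Rtp4, Reep1 and Reep6 had a probe above background on all 9 arrays, and Rtp1 on 0. Between dorsal and ventral tissue 1 of the 12 was higher and 2 were lower, beside 4.06% and 3.92% of all tested probes. The median difference was -0.07 beside 0.04 over all tested probes.

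The gene that was higher was Atf5, a stress-response transcription factor that sensory neurons need to keep their receptor choice. It averaged 11.54 ± 0.16 in dorsal, 10.46 ± 0.12 in ventral and 11.29 ± 0.11 in target tissue (SD, n = 3 each). Dorsal exceeded ventral by 1.08 (SE 0.17, limma adjusted p 0.00581), and target exceeded ventral by 0.83 (adjusted p 0.0462, or 0.0813 with the block, and 0.0582 to 0.131 in fits without any 1 array). The genes that were lower in dorsal tissue were Ebf3 and Ebf1, factors of the family first found at olfactory gene promoters. Ebf3 averaged 6.46 ± 0.39 in dorsal and 8.2 ± 0.28 in ventral tissue, a difference of -1.74 (SE 0.32, limma adjusted p 0.0118). These values are of probe 6770497, and those of the other tested Ebf3 probe are not given. Ebf1 was above background on 0 dorsal arrays and averaged 5.97 in ventral tissue, at least 1.26-fold higher (limma adjusted p 0.0498, or 0.0582 with the block, and 0.0696 to 0.14 in fits without any 1 array). It met the detection rule through ventral and target arrays alone, so the filter and this test were not independent. The call was also lost in the authors' values.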

How the data were processed

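Illumina mouse whole-genome BeadChips measured total RNA of 9 brainstem samples, 3 per region. Per the file headers, the authors exported linear bead intensities with GenomeStudio 1.6.0, unnormalized and quantile-normalized. The deposited export also gives a detection score, a fraction from 0 to 1 relative to negative controls, and the bead count behind each intensity.

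Log2 values were computed here from the deposited unnormalized intensities. In R 4.3.3, limma 3.58.1 applied neqc (normexp background correction, negative controls inferred from 1 minus the score, offset 16, quantile normalization). Probes with a score above 0.95 on at least 3 of 9 arrays (20461) were tested by lmFit and eBayes in 1 fit with region as the term, with Benjamini-Hochberg adjustment and a limit of 0.05. The number of arrays limits the precision.

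Receptor names were updated through RefSeq GRCm38.p6: 101 of the 105 included probes matched a symbol, 2 a synonym and 2 neither. Headers number the mice, so a fit with the mouse as a block was an alternative. Deviations from region means of arrays from the same mouse correlated between -0.096 and 0.146 (9 pairs), and between -0.16 and 0.215 for different mice (18 pairs).

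The probes and gene lists were chosen with earlier results of these data known. Named genes were all called receptor probes, the 10 brightest, those above background on all 9 arrays, names with several included probes, 2 probes on each side of the detection limit, and called genes of the lists. Other names were chosen after their values were seen. List genes and markers with several probes on the array were each read from a single probe. Alternatives varied background correction, normalization, probe filter, block and arrays.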

Additional observations from a re-analysis of the deposited data

How the results depend on the processing

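The number of included probes was 40 at a score limit of 0.99, and 170, 38 and 3 when at least 2, 6 and 9 arrays were required. It ran from 86 to 102 when single arrays were left out. At a limit of 0.99 the mean share of receptor probes above background was 4.43% in dorsal, 1.08% in ventral and 2.74% in target tissue. At the limit of 0.95, leaving out an array moved the shares over 7.83% to 9.83%, 3.34% to 4.72% and 6.87% to 7.76%. Receptor probes called for dorsal minus ventral numbered 12, beside 7.98% of all tested probes. With arrays centred on medians they numbered 19, beside 12.5% of all tested probes, and the median of all tested probes moved to 0.364. The number was 0 when probes had to be above background on all 9 arrays, which left 3 receptor probes (12.7% of all tested probes called). It was 14 with the mouse as a block (6.58%) and 9 to 13 leaving out single arrays (4.57% to 7.09%). For target minus ventral they numbered 7, and 4 with the replicate block, 0 with the filter on all 9 arrays and 1 to 7 leaving out arrays (1 without target array 3). For target minus dorsal they numbered 0, 1 with centred arrays (median of all tested probes -0.346) and 0 to 0 leaving out arrays. The mouse block changed no other call of a receptor probe than those named in the report.

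Olfactory list genes called for target minus dorsal numbered 1 with the authors' quantile-normalized values and 1 with no background correction (0.43% of all tested probes in each). For target minus ventral they numbered 1, 2 under each of these settings and with the filter on all 9 arrays, and 0 with centred arrays, with the 2 regions alone, with the block and leaving out any array. For dorsal minus ventral, 2 of 3 stayed called leaving out any array. Of 23 calls of named probes, 11 held under every alternative that tested the probe, 10 of 15 for dorsal minus ventral but 1 of 8, Olfr711, for target minus ventral. Olfr1441 lost the latter call in 15 of 16 alternatives, Olfr934 in 10, Olfr214 in 8, Olfr10 in 6, Olfr1153 in 2 and Olfr64 in 1. Olfr1389 lost its dorsal minus ventral call in 7, Olfr13 in 5, Olfr934 in 1 and Olfr243 in 3 of 15. Among the list genes, Ebf1 lost its dorsal minus ventral call in 14 of 15 alternatives. Atf5 lost its target minus ventral call in 12 of 17. Direction was reversed in 0 results with a call. The cause of the lost calls was not tested. With no background correction, Olfr1441 and Olfr934 lost their target minus ventral call and Ebf1 its dorsal minus ventral call. The other named calls held under that setting.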

Other observations

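Other chemosensory receptor families were detected at low rates too. Of 153 probes to vomeronasal receptors of the V1R type, which sense pheromones, 11 (7.19%) were above background on at least 3 arrays. Of these, 0 differed between regions by limma, beside 0.0586% to 7.98% of all tested probes in the 3 comparisons. The V1RH21 probe (Vmn1r197) was above background on all 9 arrays, at 7.29 in dorsal, 7.48 in ventral and 7.21 in target tissue. Of 36 probes to the V2R type, 6 (16.67%) were above background on at least 3 arrays. A probe of the V2R pseudogene that the array calls VMN2R-PS14 (probe 6860603) was at 6.12 in dorsal, 8.35 in ventral and 7.23 in target tissue, and dorsal minus ventral was -2.23 with a limma adjusted p of 0.00182. The other probe of that name (4560079) had a difference of -0.52 with an adjusted p of 0.519.

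Trace amine-associated receptors had 4 of 22 probes (18.18%) above background on at least 3 arrays, and Taar4 was so on 8 arrays, with region means of 6.18 in dorsal, 6.46 in ventral and 6.01 in target tissue. Bitter taste receptors of the Tas2r family had 4 of 36 (11.11%). Tas2r140 was at 6.14 in dorsal and 4.99 in ventral tissue, where it was above background on 0 arrays, and was at least 1.26-fold higher in dorsal tissue (limma adjusted p 0.0377). It met the detection rule through 2 dorsal arrays and 1 target array, so the filter and this test were not independent. The sweet and umami receptors Tas1r had 0 of 3 probes and the formyl peptide receptors 0 of 7. These genes were named after their values were seen.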
